A study of Mus musculus with 24 samples.

Results

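Bhlhe40 and Bhlhe41 encode DEC1 and DEC2, a pair of basic helix-loop-helix repressors of the circadian clock. The members were the rows of the deposited table whose symbol is Bhlhe40 or Bhlhe41, which gave 2 of 14027 genes. RNA was measured by stranded total RNA sequencing, after removal of ribosomal RNA, in glucagon-secreting alpha cells and insulin-secreting beta cells of mouse pancreatic islets. The islets were isolated at ZT0, ZT4, ZT8, ZT12, ZT16 and ZT20 (zeitgeber time, hours after lights on), with 2 libraries for each cell type and time, 12 alpha and 12 beta libraries in all. Every library came from a strain that the labels call a triple reporter mouse. The sources used here do not give the reporters and their promoters, the animals' age and sex, or whether replicates are from different animals. The p-values therefore rest on a spread between libraries that may be technical.

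DEC proteins bind the E-box, the DNA element through which CLOCK and BMAL1 switch on clock genes, and repress transcription there. Their own genes are in turn switched on through E-boxes, so that they form an accessory feedback loop beside the one of the PER and CRY proteins. Bhlhe40 is also known as a gene that responds quickly to growth factors, cAMP and low oxygen, and Bhlhe41 is known for its part in the control of sleep length in humans and mice.

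Both genes lie on chromosome 6 of GRCm38, the assembly that mm10 names. Bhlhe40 (ENSMUSG00000030103) spans 108660629 to 108666925 on the plus strand, and Bhlhe41 (ENSMUSG00000030256) spans 145858243 to 145865558 on the minus strand, each annotated by GENCODE as protein-coding with 5 exons in its longest coding transcript. The longest run of identical bases between these transcripts is 15, shorter than a usual sequencing read. The antisense gene 0610040F04Rik overlaps the start of Bhlhe40 by 306 bases. It had 4 to 14 reads in alpha and 14 to 30 reads in beta libraries, and no source used here says whether the counting used strand. The antisense entry Gm43909 lies within Bhlhe41 over 1876 bases and was not analysed here.

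Among the 250 bases before its RefSeq start (GRCm38.p6), Bhlhe41 held 1 E-box with the letters CACGTG. Bhlhe40 had no promoter window in the source used here and was not searched. This motif reads the same on both strands, and 6.02% of 32851 promoter windows of that length held it. Of the 16 other core clock genes that had such a window, 4 held the motif in at least 1 window, namely Per1, Cry1, Tef and Ciart. This count is by gene, and a gene can have more than 1 window, whereas the share above is by window. The E-box of Bhlhe41 lies at chr6:145865568-145865573, 153 bases before the RefSeq start and 15 bases before the start of the GENCODE gene. The windows of 26 bases around these E-boxes are shown because the genes that carry them peaked at different times of day, as given below, and the E-box is in capitals. The window of Bhlhe41 and the most upstream one of each other gene are given. The first stretch, chr6:145865559-145865670 on the minus strand, lies upstream of both annotated starts of Bhlhe41.
Bhlhe41 upstream stretch: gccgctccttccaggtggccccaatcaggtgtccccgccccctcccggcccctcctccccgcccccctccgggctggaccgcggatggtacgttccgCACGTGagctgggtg
Bhlhe41 (chr6:145865558-145865583, minus strand): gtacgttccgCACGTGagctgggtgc
Per1 (chr11:69098773-69098798, plus strand): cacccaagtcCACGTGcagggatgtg
Cry1 (chr10:85185099-85185124, minus strand): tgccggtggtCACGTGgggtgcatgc
Tef (chr15:81802536-81802561, plus strand): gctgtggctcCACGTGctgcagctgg
Ciart (chr3:95882329-95882354, minus strand): catctagagtCACGTGttgccggtaa

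None of 3 other clock motifs, searched on both strands, was found in the Bhlhe41 window. They were CACGTT (a variant E-box, in 3.85% of windows), TTATGTAA (the D-box of the PAR bZIP factors, in 0.819%) and AGGTCA (the core of the element of REV-ERB and ROR receptors, in 14.0%). A match is a description of the sequence and no evidence of binding.

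The libraries held 4944982 to 12364190 reads in the table. Markers went with the labels: 7 of 7 alpha markers were higher in alpha and 7 of 7 beta markers higher in beta libraries (limma, 2-fold or more with an adjusted p below 0.05, met by 11.2% of all genes as higher in alpha cells). The summed level of alpha markers was 101400 to 176900 RPKM (reads scaled to gene length and library size) in alpha and 607 to 2523 RPKM in beta libraries, and that of beta markers was 414 to 5210 RPKM in alpha and 188800 to 350900 RPKM in beta libraries. Markers of delta cells (3 of 3), PP cells (2 of 2), duct cells (2 of 2) and stromal cells (4 of 4) were also higher in alpha libraries, and those of endothelial cells (0 of 3) were not called in either direction. PP markers summed to 27820 to 59530 RPKM in alpha and 359 to 1730 RPKM in beta libraries. Delta markers summed to 2512 to 5175 RPKM in alpha and 644 to 1420 RPKM in beta libraries. The part of these other cells in the results was not tested. The summed level of the 2 immune markers analysed, Ptprc and Lyz2, was 0.317 to 11.5 RPKM in alpha and 0.949 to 7.87 RPKM in beta libraries, and that of the 3 acinar markers 9.34 to 134 RPKM in alpha and 12.2 to 115 RPKM in beta libraries, ranges that overlapped.

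Both DEC genes were lower in alpha than in beta cells, Bhlhe40 by more than Bhlhe41. The mean of each gene was highest at ZT12 in each cell type, and the daily rhythm passed its test for Bhlhe41 in both cell types and for Bhlhe40 in beta cells, but not for Bhlhe40 in alpha cells. Bhlhe40 averaged 1.67 ± 0.714 RPKM in alpha against 6.20 ± 2.31 RPKM in beta cells (SD, 12 libraries each, time of day included). Bhlhe41 averaged 5.75 ± 1.32 RPKM in alpha against 9.66 ± 2.12 RPKM in beta cells. By mean log2 level, Bhlhe40 stood above 20.9% of all genes in alpha cells and above 49.5% in beta cells, and Bhlhe41 above 49.2% in alpha cells and 64.3% in beta cells. Bulk RNA cannot tell fewer cells that express a gene from less RNA per cell.

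Bhlhe40 in alpha cells had 1.42 and 1.26 RPKM at ZT0, 1.09 and 0.898 at ZT4, 0.878 and 3.11 at ZT8, 2.04 and 2.66 at ZT12, 2.21 and 1.83 at ZT16, and 1.13 and 1.55 at ZT20 (replicates 1 and 2). The highest and the lowest alpha library were both at ZT8. In beta cells it had 3.80 and 5.19 RPKM at ZT0, 3.97 and 2.08 at ZT4, 6.30 and 6.81 at ZT8, 8.78 and 9.34 at ZT12, 8.80 and 8.11 at ZT16, and 4.63 and 6.63 at ZT20. Beta libraries were highest at ZT12 and ZT16 and lowest in replicate 2 of ZT4. These values rest on 28 to 127 reads per alpha library and 62 to 319 reads per beta library. The lowest, 28 reads, has an exact Poisson 95% interval of 18.6 to 40.5 reads, which covers counting error only.

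Bhlhe41 in alpha cells had 4.38 and 4.54 RPKM at ZT0, 4.71 and 4.84 at ZT4, 5.56 and 6.93 at ZT8, 7.83 and 8.12 at ZT12, 6.68 and 5.72 at ZT16, and 4.66 and 5.07 at ZT20. In beta cells it had 7.24 and 7.67 RPKM at ZT0, 7.86 and 7.95 at ZT4, 13.1 and 10.5 at ZT8, 11.3 and 13.5 at ZT12, 10.7 and 9.03 at ZT16, and 8.78 and 8.36 at ZT20. By the median, replicates of Bhlhe41 lay closer together than those of Bhlhe40. The median gap between the 2 libraries of a time was 0.09 (log2) in alpha and 0.16 in beta cells, against 0.32 and 0.28 for Bhlhe40. In beta cells, however, Bhlhe40 had the smaller gap at ZT8 (0.11 against 0.33), ZT12 (0.09 against 0.25) and ZT16 (0.12 against 0.25), and the larger gap at ZT0, ZT4 and ZT20. Bhlhe41 had 269 to 594 reads per alpha library and 420 to 879 per beta library.

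**Figure D1:**
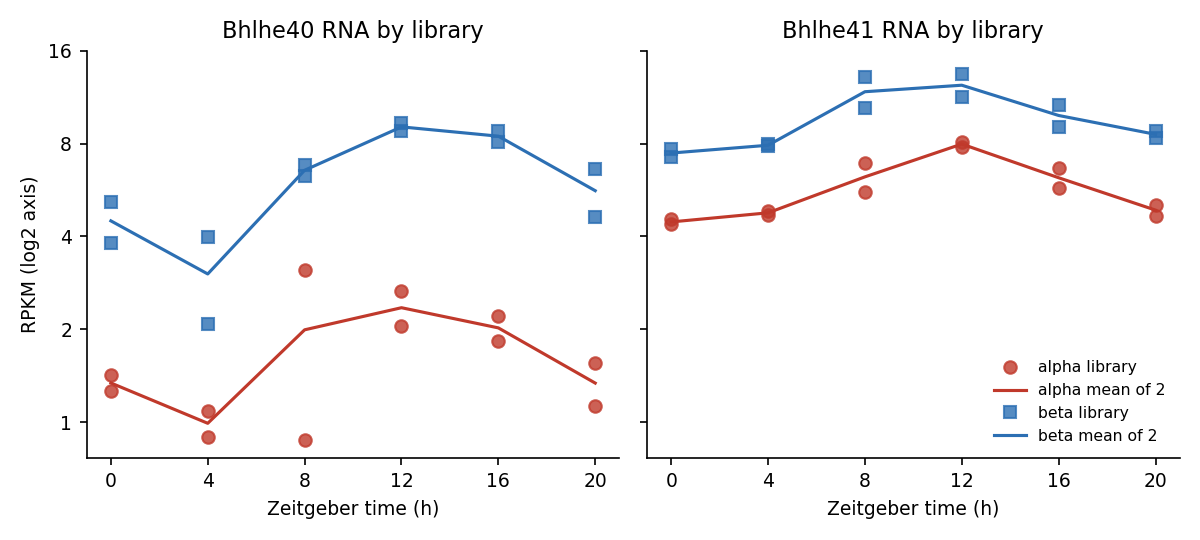
RPKM (log2 axis) of Bhlhe40 (left) and Bhlhe41 (right) against zeitgeber time in hours, with points for single alpha (red circles) and beta (blue squares) libraries and lines through the means of 2. Alpha libraries lie below beta libraries at each time, and the 2 alpha libraries of ZT8 differ for Bhlhe40 (0.878 and 3.11 RPKM).

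The question of the design, how the clocks of the cell types differ, was first addressed by level. Bhlhe40 had a mean log2 RPKM of 0.68 in alpha and 2.54 in beta cells, a difference of -1.85 (SE 0.149), which is 3.61-fold higher in beta cells (limma, Benjamini-Hochberg adjusted p = 1.4e-10). Bhlhe41 had 2.50 in alpha and 3.25 in beta cells, a difference of -0.75 (SE 0.0542), or 1.68-fold (limma, adjusted p = 2.1e-11). A call needed a fold of 2 or more as well as an adjusted p below 0.05, and by this rule 9.54% of all genes were lower in alpha cells. Bhlhe40 met it and Bhlhe41 passed the p-value but not the fold. Without the fold, 74.9% of all genes passed, so that a low p alone does not set Bhlhe41 apart. On the log2(RPKM + 1) scale, 6.37% of all genes were called lower in alpha cells, and the share of called genes that were lower there was 57.3% in place of 46.1%.

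At each of the 6 times, both alpha libraries lay below both beta libraries for both genes, which was so for 20.7% of all genes. Across times the cell types overlapped, while 14.2% of all genes had all beta above all alpha libraries. For Bhlhe40, 3 alpha libraries lay above the lowest beta library, and for Bhlhe41, 2 did. The log2 difference of Bhlhe40, alpha minus beta, was -1.69 at ZT0, -1.49 at ZT4, -1.94 at ZT8, -1.93 at ZT12, -2.04 at ZT16 and -2.02 at ZT20, each with an SE of 0.404. For Bhlhe41 it was -0.74, -0.72, -0.91, -0.63, -0.67 and -0.81 at the same times, each with an SE of 0.139. The limma adjusted p was at most 0.0072 for Bhlhe40 and at most 0.0017 for Bhlhe41 at each time, beside 40.5%, 42.3%, 40.9%, 41%, 42.0% and 43.7% of all genes with an adjusted p under 0.05 at ZT0 to ZT20. Without replicate 1 of the beta cells at ZT4, the ZT4 call of Bhlhe40 was lost (log2 difference -1.03, limma adjusted p = 0.091), with the lowest beta library as the only one left at that time. The spread of these differences over the day was within their errors, and the test of the interaction of cell type with time gave an adjusted p of 1 for each gene (limma F-test, unadjusted p = 0.91 for Bhlhe40 and 0.74 for Bhlhe41, with 0.0143% of all genes called).

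**Figure D2:**
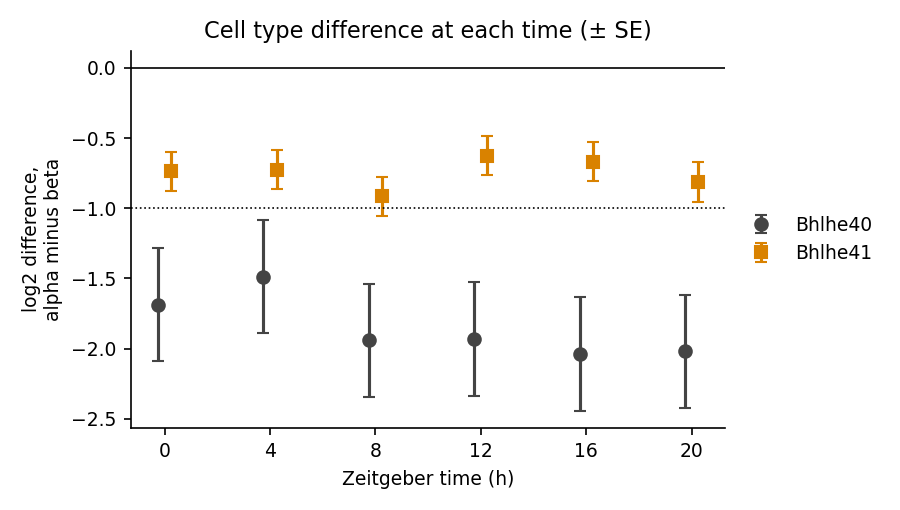
Difference of log2 RPKM, alpha minus beta cells, at each zeitgeber time for Bhlhe40 (circles) and Bhlhe41 (squares), with bars of 1 SE and a dotted line at a fold of 2. All points lie below 0, from -1.49 to -2.04 for Bhlhe40 and from -0.63 to -0.91 for Bhlhe41.

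In the order of the 12 groups of cell type and time by mean log2 level, all 6 beta groups came before all 6 alpha groups for Bhlhe40. The beta groups ran ZT12, ZT16, ZT8, ZT20, ZT0 and ZT4, and the alpha groups ZT12, ZT16, ZT8, ZT0, ZT20 and ZT4. Neighbours in this order overlapped in their libraries except between beta ZT16 and beta ZT8 and between alpha ZT20 and alpha ZT4. For Bhlhe41 the order was mixed at the middle, where alpha ZT12 (mean log2 RPKM 3.00) stood between beta ZT20 (3.10) and beta ZT4 (2.99) and overlapped beta ZT4.

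Both genes were fitted with a 24 h cosine in each cell type. Bhlhe41 was called rhythmic in alpha cells, with a peak at ZT 12.1 ± 0.6 h (± SE) and a range of 1.74-fold between peak and trough (limma F-test, adjusted p = 0.00083, with 9.66% of all genes called). In beta cells its peak was at ZT 11.6 ± 0.6 h with a range of 1.67-fold (adjusted p = 0.00099, with 16% of all genes called). Bhlhe40 peaked at ZT 13.5 ± 1.2 h in alpha cells with a fitted range of 2.04-fold, which did not pass the test (limma, adjusted p = 0.086). In beta cells Bhlhe40 peaked at ZT 14.0 ± 0.8 h with a range of 2.78-fold (limma, adjusted p = 0.011). The beta call of Bhlhe40 was lost when time was taken as a factor in place of the cosine (limma, adjusted p = 0.073). In alpha cells the limma adjusted p of Bhlhe40 was then 0.29. The wider fitted ranges belonged to the gene with the larger median gap between replicates, though not with the larger gap at each time in beta cells.

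The rhythms were not shown to differ between the cell types. The limma F-test of the difference of rhythm gave an adjusted p of 1 for each gene (unadjusted p = 0.57 for Bhlhe40 and 0.80 for Bhlhe41, with 0.0713% of all genes called). For Bhlhe40 the peak time, alpha minus beta, differed by -0.56 ± 1.45 h (± SE) and the log2 range by -0.45 ± 0.45. For Bhlhe41 these differences were 0.46 ± 0.82 h and 0.06 ± 0.16. Of the 15 other clock genes rhythmic in both cell types, 14 had the later fitted peak in alpha cells. The median shift of the 15 was 1.52 h (range -0.07 to 2.29 h). None of the 15 passed the limma F-test of the difference of rhythm (lowest adjusted p = 0.12, for Nr1d1). The share of later alpha peaks among all genes rhythmic in both cell types was not counted. A shift of the median size lies within 2 SE of the values of both DEC genes.

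Among the 18 other core clock genes, 15 were rhythmic in alpha and 16 in beta cells, and 15 in both, as were 4.15% of all genes. In beta cells Bhlhe41 peaked beside Tef, a PAR bZIP activator of D-box genes (ZT 11.6 ± 0.3 h), and Ciart, a repressor of CLOCK and BMAL1 (11.2 ± 0.6 h). Bhlhe40 peaked there between Hlf (13.3 ± 0.5 h), another PAR bZIP activator, and Per1 (15.1 ± 0.9 h), a repressor, with Cry2 at 14.3 ± 0.6 h. Cry1, a late repressor that also carries an E-box in its promoter window, peaked at 19.9 ± 0.3 h. Arntl, which encodes BMAL1, peaked at ZT 1.0 ± 0.5 h in alpha and ZT 23.2 ± 0.3 h in beta cells. The fitted range of Bhlhe41 lay below, and that of Bhlhe40 near the low end of, those of the 15 clock genes rhythmic in both cell types, which spanned 1.77-fold to 14.8-fold in alpha and 2.12-fold to 37.3-fold in beta cells.

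**Figure D3:**
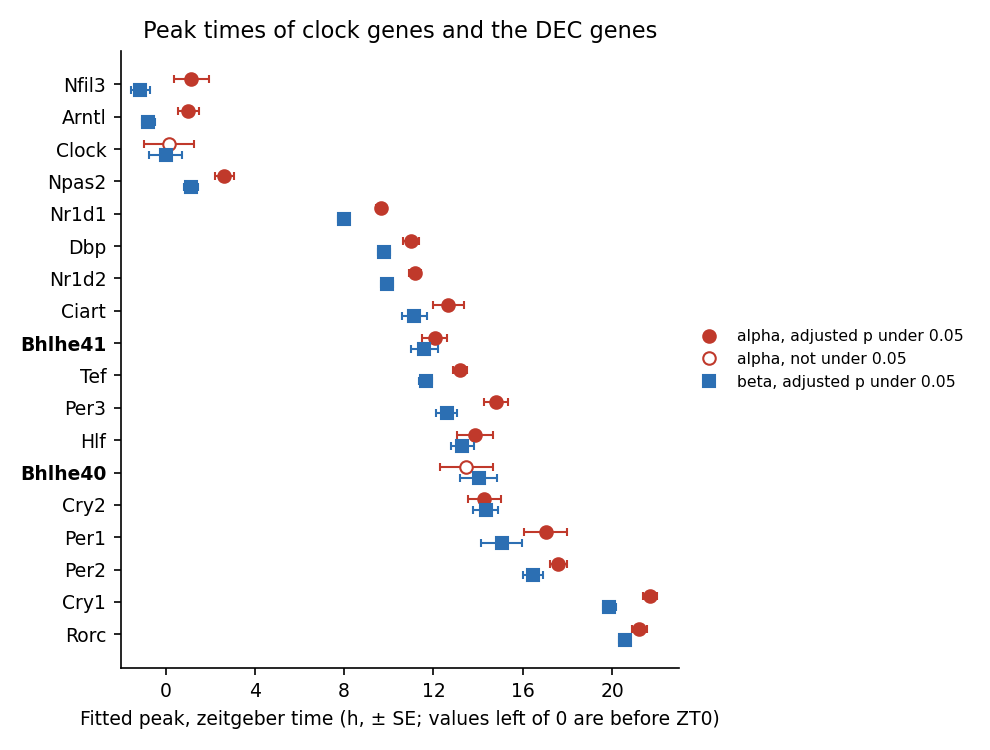
Fitted peak time (zeitgeber hours, bars of 1 SE) of Bhlhe40, Bhlhe41 and the clock genes called rhythmic in at least 1 cell type, in alpha (red circles) and beta cells (blue squares), ordered by the beta peak, with open symbols where the adjusted p was not under 0.05. Bhlhe41 lies at ZT 12.1 in alpha and ZT 11.6 in beta cells, and Bhlhe40 at ZT 13.5 and ZT 14.0.

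RPKM is scaled by gene length, so the levels of the 2 genes can be set side by side. Bhlhe41 was the higher of them in all 24 libraries, by 2.23-fold to 6.33-fold in RPKM in alpha cells and 1.11-fold to 3.83-fold in beta cells. The balance, deposited log2 RPKM of Bhlhe40 minus Bhlhe41 with the authors' prior count included, was -1.82 ± 0.39 in alpha and -0.71 ± 0.48 in beta cells (mean ± SD, 12 libraries each). The difference of -1.10 had a two-sided p of 4.3e-05 in an exact permutation test that reassigned cell types within times, the smallest that its 46656 arrangements can give. The gap between cell types was thus larger for Bhlhe40 than for Bhlhe41. On the log2(RPKM + 1) scale, which compresses low values, the difference was -0.72.

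Through the day the balance in alpha cells was -1.68 at ZT0, -2.20 at ZT4, -1.86 at ZT8, -1.74 at ZT12, -1.58 at ZT16 and -1.82 at ZT20 (means of 2 libraries). In beta cells it was -0.73, -1.44, -0.83, -0.44, -0.21 and -0.62 at the same times. The genes were closest in beta cells at ZT16, where Bhlhe41 exceeded Bhlhe40 by 1.22-fold and 1.11-fold (RPKM) in replicates 1 and 2, and farthest apart at ZT4, with 1.98-fold and 3.83-fold. A 24 h cosine of the balance had a log2 range of 0.98 in beta cells and a peak at ZT 15.8 (exact permutation of times over 12 libraries, p = 0.021 adjusted over the 2 cell types). In alpha cells the log2 range was 0.40 (exact permutation, adjusted p = 0.50). The beta call was lost without replicate 2 of ZT4 (adjusted p = 0.097, log2 range 0.68), replicate 1 of ZT16 (0.054) or replicate 2 of ZT16 (0.071), and the difference of the balance's rhythm between cell types was not tested.

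**Figure D4:**
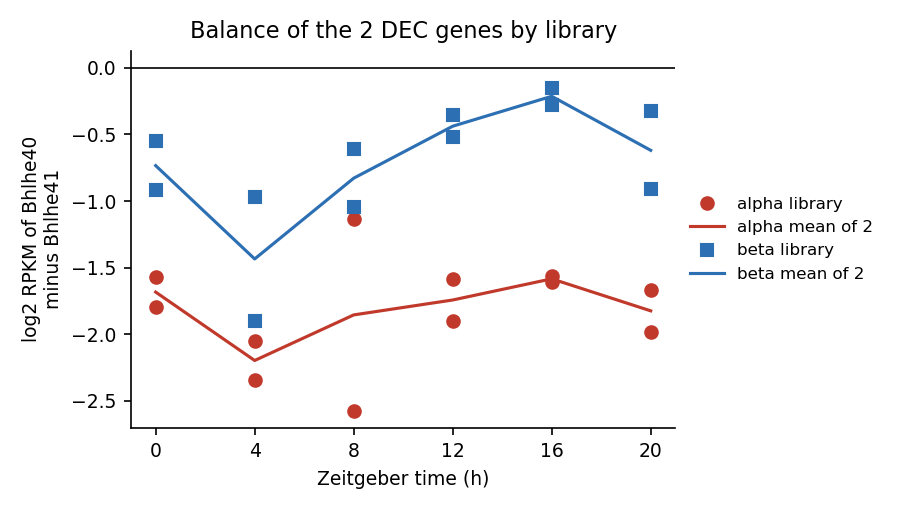
Log2 RPKM of Bhlhe40 minus Bhlhe41 by zeitgeber time (hours), with points for alpha (red circles) and beta (blue squares) libraries and lines through the means of 2. All 24 libraries lie below 0, and in beta cells the mean comes nearest to 0 at ZT16 (-0.21) and is lowest at ZT4 (-1.44).

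Immediate early genes, which respond within minutes to stimulation or cell handling, varied between libraries of the same time. Bhlhe40 followed them in alpha cells by Pearson's r but not by rank. Of 17 such genes, 13 were called higher in alpha cells and 0 lower, beside 11.2% and 9.54% of all genes, the opposite direction to Bhlhe40. Their mean log2 RPKM at ZT8 was 2.41 in replicate 1 and 5.88 in replicate 2 of the alpha cells, the libraries with 0.878 and 3.11 RPKM of Bhlhe40. In beta cells the same replicates had 1.34 and 3.65, but Bhlhe40 there was 6.30 and 6.81 RPKM. At ZT4 the beta replicates had 2.82 and 1.78, with 3.97 and 2.08 RPKM of Bhlhe40. The alpha replicates of ZT4 had 4.70 and 2.96, with 1.09 and 0.898 RPKM of Bhlhe40.

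Over the 12 alpha libraries, Bhlhe40 and the immediate early level had a Pearson r of 0.71 (permutation p = 0.0071, adjusted p = 0.029 over 4 relations) and a Spearman rho of 0.50 (permutation p = 0.099, adjusted p = 0.40). Without the 2 libraries farthest from the median immediate early level, replicate 1 of ZT8 and replicate 2 of ZT4, r was 0.45. The size of r thus depended in part on those libraries, and replicate 2 of ZT8, with the highest immediate early level, was kept. In beta cells r was 0.33 and rho 0.23 (permutation p = 0.29 and p = 0.47, adjusted p = 0.49 and p = 0.63), and 0.53 without the 2 farthest libraries. For Bhlhe41 r was 0.23 in alpha and -0.22 in beta cells, with rho of 0.04 and -0.23 (permutation p = 0.49, p = 0.49, p = 0.90 and p = 0.47; adjusted p = 0.49, p = 0.49, p = 0.90 and p = 0.63). Without the 2 farthest libraries r of Bhlhe41 was 0.19 in alpha and -0.01 in beta cells. With the immediate early level as a term in the model, the alpha rhythm of Bhlhe40 had an adjusted p of 0.034 (limma, peak at ZT 12.7, 1.91-fold), an alternative chosen after seeing the data.

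**Figure D5:**
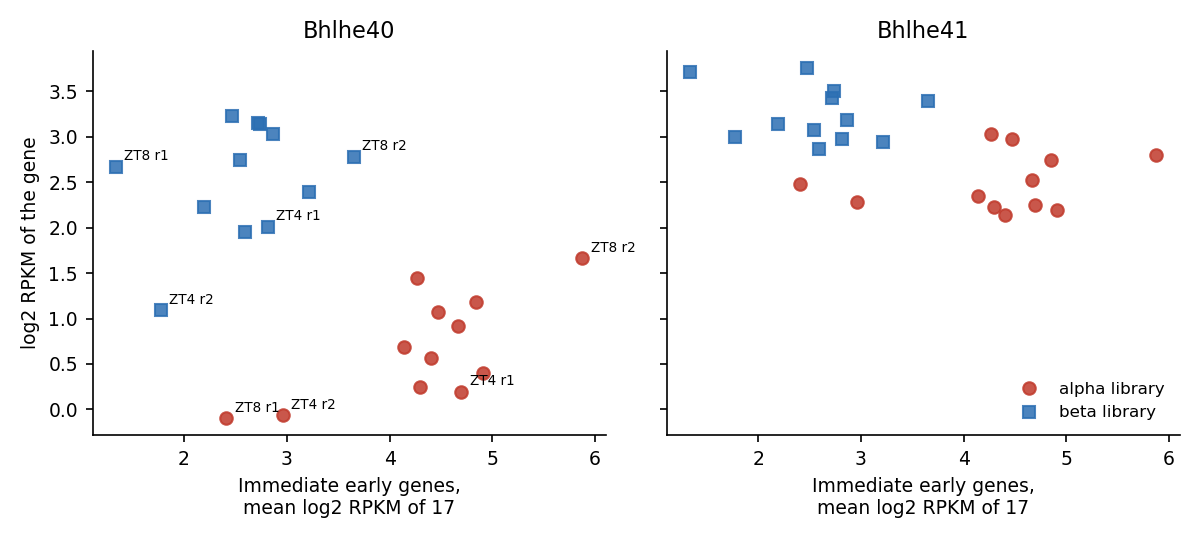
Log2 RPKM of Bhlhe40 (left, with the libraries of ZT4 and ZT8 named by replicate) and Bhlhe41 (right) against the mean log2 RPKM of 17 immediate early genes, 1 point per library, alpha in red circles and beta in blue squares. The alpha libraries of ZT8 lie at both ends of the immediate early range of the alpha cells (2.41 and 5.88).

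Between the members, log2 RPKM over 12 libraries correlated with r = 0.78 in alpha cells (permutation p = 0.0039, adjusted p = 0.0079 over 2 relations; rho = 0.68, permutation p = 0.019, adjusted p = 0.019) and r = 0.69 in beta cells (permutation p = 0.013, adjusted p = 0.013; rho = 0.79, permutation p = 0.0034, adjusted p = 0.0069). Without the 2 libraries farthest from the median of Bhlhe40 r was 0.66 in alpha and 0.67 in beta cells. Libraries of the same time share a time of day, so the points are not free of it.

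The likeness of other genes was measured as Pearson's r over the 24 libraries after subtracting each cell type's mean, among 11830 genes with a mean log2 RPKM above 0, as a description without a test. Ciart stands in the table under its older symbol Gm129. Bhlhe41 was most like Tef (r = 0.92), Ciart (0.87), Dbp (0.86), another PAR bZIP activator, Nr1d2 (0.83), which encodes the repressor REV-ERB beta, and Fhit (0.82). It was least like Arntl (-0.91), Fam84a (-0.89) and Ypel2 (-0.88). Bhlhe40 was most like Trib1, a pseudokinase gene (0.82), Xrcc6, which encodes the DNA repair protein Ku70 (0.79), Ciart (0.78), the splicing factor gene Sf3b1 (0.75) and Cry2 (0.74). It was least like the carboxypeptidase gene Cpm (-0.84), Etohd2 (-0.82) and the phosphatase gene Ppm1b (-0.80). Each DEC gene stood high in the other's order, Bhlhe41 in place 10 for Bhlhe40 and Bhlhe40 in place 16 for Bhlhe41 (r = 0.73). Of the 5 genes nearest to Bhlhe41, 4 were core clock genes, and of the 5 nearest to Bhlhe40, 2 were.

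Relatives and partners of the DEC factors were counted by the same fits, beside 11.2% of all genes higher and 9.54% lower in alpha cells, and 9.66% rhythmic in alpha, 16% in beta and 4.15% in both. Of 18 core clock genes 2 were higher in alpha cells (Hlf, and Rorb at no more than 24 reads) and 1 was lower (Ciart, 1.07 ± 0.972 RPKM in alpha against 2.70 ± 2.58 RPKM in beta cells). Their median log2 difference was -0.07, against 0.01 over all genes. Of the HES and HEY repressors, which share the Orange domain with the DEC proteins, 2 of 10 were analysed, and Hes1 was higher in alpha cells (8.04 ± 2.03 RPKM, against 2.80 ± 0.537 RPKM in beta cells). Hes6, named after its values were seen, had 13.9 ± 1.71 RPKM in alpha against 22.9 ± 6.95 RPKM in beta cells. It passed the p-value but not the fold (limma, adjusted p = 7.2e-09).

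ID proteins lack a DNA-binding region and hold other helix-loop-helix proteins off DNA. Of 4 Id genes, 3 were higher in alpha cells and 0 lower, with a median log2 difference of 3.11. Id3 had 4.83 ± 1.26 RPKM in alpha against 0.118 ± 0.0775 RPKM in beta cells, and Id1 3.09 ± 1.29 RPKM in alpha against 0.0513 ± 0.0889 RPKM in beta cells. In beta libraries these rest on at most 4 and 3 reads. Id2, named after its values were seen, had 8.57 RPKM in alpha against 7.72 RPKM in beta cells and was not called.

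Of 22 other factors that bind E-boxes or related elements, 3 were higher and 3 lower in alpha cells (median log2 difference 0.16). Srebf1, an activator of lipid synthesis, had 12.1 ± 1.73 RPKM in alpha against 32.2 ± 4.72 RPKM in beta cells. Mlxipl, which encodes the glucose-responsive activator ChREBP, had 3.74 ± 2.30 RPKM in alpha against 39.9 ± 20.3 RPKM in beta cells. Arnt2, a dimer partner of PAS factors, had 16.5 ± 1.67 RPKM in alpha against 4.41 ± 0.861 RPKM in beta cells, and Mycn 1.86 ± 0.365 RPKM in alpha against 0.104 ± 0.0766 RPKM in beta cells. Of these 22, 5 were rhythmic in alpha, 6 in beta and 3 in both (9.66%, 16% and 4.15% of all genes), namely Usf2 (peak at ZT 8.4 in alpha and ZT 8.3 in beta cells), Srebf1 (ZT 22.2 and ZT 20.8) and Srebf2 (ZT 22.1 and ZT 20).

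Hypoxia targets were listed because Bhlhe40 is one in other cells. Of 16 analysed, 0 were called between the cell types by limma with the fold of 2, and 14 had an adjusted p under 0.05 at smaller folds, as 74.9% of all genes had at any fold, and their median log2 difference was -0.20. Of these 16, 5 were rhythmic in alpha, 4 in beta and 2 in both, beside the same shares of all genes (Pdk1 at ZT 7.7 in alpha and ZT 7.5 in beta cells, and Ndrg1 at ZT 3.4 and ZT 4.2).

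Of 13 partners and turnover factors of the DEC proteins, 2 were higher in alpha cells and 0 lower (median log2 difference 0.14). They were Rxra, a nuclear receptor (27.5 ± 4.02 RPKM in alpha against 8.75 ± 1.48 RPKM in beta cells), and Csnk1e, a clock kinase (4.19 ± 0.745 RPKM in alpha against 2.00 ± 0.298 RPKM in beta cells). Among 6 analysed genes reported as repressed by DEC factors in other studies, 0 were higher and 2 lower in alpha cells, in the same direction as Bhlhe40. Mafa, an activator of insulin transcription, had 1.99 ± 1.85 RPKM in alpha against 184 ± 73.3 RPKM in beta cells, and Pparg, a lipid-sensing nuclear receptor, 0.0483 ± 0.0430 RPKM in alpha (at most 3 reads) against 6.11 ± 1.32 RPKM in beta cells. Mafa is also a beta cell marker here. Per1 and Dbp, the clock genes of that list, had log2 differences of 0.72 and -0.45, below the fold threshold.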

How the data were processed

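The deposited table held log2 RPKM values for 14027 genes in 24 libraries, made by the authors. STAR, edgeR and mm10 are named, per the submitters' processing notes, without versions. No source used here gives the annotation, the counting and its strand setting, or the gene filter. The steps of the log2 values gave back whole reads (largest deviation from a whole number 5.6e-08) and the prior count added before the log, which averaged 2.0. RPKM and its ratios are printed without this prior, and log2 values and tests are as deposited. The recovered reads summed to 4944982 to 12364190 per library. Intervals on reads cover counting error only.

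Limma fits (version 3.58.1, R 4.3.3, trend and robust) over all genes and libraries gave the cell type, interaction and 24 h cosine tests. Separate models held time as a factor, a mean for each cell type and time, or a cosine in each cell type. P-values were adjusted by Benjamini-Hochberg over all genes. The balance used exact permutation tests, and correlations used 100000 permutations. Fits were tested on simulated reads with the same spread setting for all genes, which was not matched to the replicate gaps of Bhlhe40. The members and the gene lists were chosen with earlier results of these data known. List genes named were called genes, at most 4 per list by lowest p, all clock genes, and the 5 most and 3 least like genes. The rhythmic genes named in lists of 5 or fewer were chosen after their values were seen. Alternatives changed the scale, filter, scaling, spread model, rhythm shape, samples and pairing, and left out each library. Promoter windows came from RefSeq (GRCm38.p6), gene positions from GENCODE.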

Additional observations from a re-analysis of the deposited data

How the results depend on the processing

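The cell type differences kept their direction and side of the threshold in all 32 other settings for each gene, between -1.95 and -1.38 for Bhlhe40 and between -0.77 and -0.66 for Bhlhe41 (log2). The difference of Bhlhe40 at ZT4 lost its call without replicate 1 of the beta cells at ZT4, which left 5 of 6 times. Without each library in turn the overall differences ranged from -1.95 to -1.74 and from -0.77 to -0.72. The adjusted p of the Bhlhe40 rhythm ranged from 0.056 to 0.19 in alpha and 0.0042 to 0.040 in beta cells without single libraries. With time as a factor the limma adjusted p was 0.29 in alpha and 0.073 in beta cells. It was 0.034 in alpha cells with the immediate early level as a term, which was chosen after seeing the data. The cause was not tested. Bhlhe41 stayed rhythmic in both cell types in all 34 other settings. The daily change of the balance in beta cells had an adjusted p of 0.0065 to 0.097 (exact permutation) without single libraries. The differences between replicates 1 and 2, over all genes, correlated between the cell types at 0.65 at ZT0 to 0.04 at ZT20, and positively at each time. Whether same-numbered libraries share a preparation was not tested, and the main tests did not take the numbers as pairs. With the replicate block, Bhlhe40 differed by -1.85 and Bhlhe41 by -0.75, the Bhlhe40 rhythm had a limma adjusted p of 0.09 in alpha and 0.013 in beta cells, and no call changed. With log2(RPKM + 1), 1559 genes were called between cell types in place of 2903. The planned edgeR and DESeq2 fits were not run. In their place limma-voom on the recovered reads, added after seeing the data, gave -1.91 for Bhlhe40. Bhlhe40 had 28 to 127 reads per alpha library, and the part of depth in its alpha rhythm was not tested.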
